A study of Mus musculus with 8 samples.

Results

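Collagens are described here through the 44 protein-coding mouse genes whose symbol names a collagen chain, written as Col, a type number, the letter a and a chain number. They were chosen by symbol and biotype alone, out of 54532 genes in the deposited table, and no measured value entered the choice. The genes fall into 10 chains of basement membranes, 11 fibrillar chains, 6 microfibrillar chains and 17 other chains.

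The lung endothelial cells (ECs) came from wild-type (WT) mouse pups of the C57BL/6J strain per the study's methods, and RNA was sequenced in bulk at day 14 after birth. Normoxia pups stayed in room air (21% O2) and hyperoxia pups in 80% O2 from P0 to P14, the day counted from birth, and no group carried an engineered allele or received a drug. Each group held 4 libraries. Lung suspensions were depleted of CD45-bearing leukocytes with magnetic beads and ECs were then taken with beads against CD31, a surface protein of ECs, so cells that cling to ECs or carry some CD31 can be counted with them. The labels do not say whether the libraries of a group came from separate pups or pools, so p-values measure the spread between these libraries, which may be technical in part.

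Collagen molecules are wound from α chains into a helix, and each chain is the product of its own gene. Type IV chains build the sheet-like network of the basement membrane under endothelium and epithelium, with α1 and α2 in nearly every basement membrane and α3, α4 and α5 together in those of the lung alveolus and the kidney glomerulus. Types I, III and V form the banded fibrils of the interstitium, and type VI forms beaded microfibrils next to basement membranes. Lung ECs are a known source of type IV, XV and XVIII collagen, while fibrils are made mainly by fibroblasts and smooth muscle cells.

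The libraries held between 16098086 and 18300730 counts. The 10 endothelial markers summed to between 15945 and 16868 CPM (a gene's count over the normalized library size, on a common scale) in normoxia and to between 15501 and 16332 CPM in hyperoxia. At an adjusted p under 0.05 (edgeR, over all genes tested), 3 of them rose (Emcn, Cldn5 and Kdr, log2 fold change, or log2FC, 0.42, 0.22 and 0.18), 3 fell (Tek, Erg and Tie1, log2FC -0.79, -0.25 and -0.18), and 4, with Pecam1 and Cdh5, did not pass the test. Marker sums of epithelial cells were higher in every hyperoxia library, and those of epithelial and stromal cells were lower in hyperoxia 3 than in the other 3 hyperoxia libraries. The 8 alveolar type 1 (AT1) markers summed to between 139 and 164 CPM in normoxia and to 644, 609, 295 and 601 CPM in hyperoxia 1 to 4, and all 8 rose. Another 8 markers, of alveolar type 2 (AT2) cells, summed to between 242 and 336 CPM in normoxia and to 2283, 2253, 767 and 2006 CPM in hyperoxia 1 to 4, and all 8 rose. The 6 pan-epithelial markers went from between 6.24 and 14.3 CPM to 93.5, 82.9, 28.3 and 84.0 CPM, and all 6 rose. Of these, Epcam, Krt8 and Krt19 reached the minimum level for testing (0.566 CPM in 4 libraries) only through hyperoxia. Fibroblast markers, of which 3 of 8 tested rose, summed to between 85.3 and 175 CPM in normoxia, with the highest sum in normoxia 1, and to 256, 279, 96.3 and 177 CPM in hyperoxia 1 to 4. Dcn, among those that rose, also reached the minimum level only through hyperoxia. Markers of mural cells and myofibroblasts, of which 7 of 9 tested rose, summed to between 26.0 and 53.5 CPM in normoxia, again highest in normoxia 1, and to 83.4, 119, 49.3 and 87.4 CPM in hyperoxia. For scale, 18.5% of all genes tested rose and 17.1% fell. In a bulk library, fewer cells of a type and less RNA per cell cannot be told apart.

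**Figure D1:**
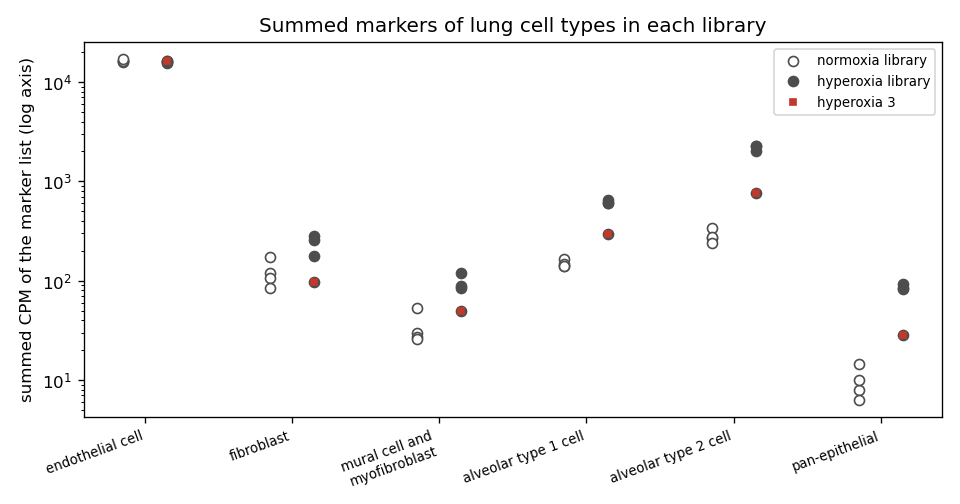
Summed CPM of the marker lists (vertical axis, log scale) in each of the 8 libraries, with normoxia libraries as open circles, hyperoxia libraries as filled circles and a square on hyperoxia 3. The endothelial sum stayed between 15501 and 16868 CPM, whereas the AT1, AT2 and pan-epithelial sums were higher in every hyperoxia library and lowest among these in hyperoxia 3.

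Collagen transcripts took a larger share of the RNA in hyperoxia, and 22 of the 31 chains that could be tested rose. They made up 1.59 ± 0.0492% of all counts in normoxia (SD, n = 4, range 1.53 to 1.65%) and 2.30 ± 0.0583% in hyperoxia (range 2.25 to 2.38%), so the groups did not overlap. Of the 44 genes, 31 had enough counts to be tested. A gene is said to have risen or fallen when the adjusted p of the edgeR quasi-likelihood test, over all 15564 genes tested, was under 0.05. By this measure the 22 chains rose and 2 fell, Col14a1 and Col17a1, and 7 did not pass the test. Among all genes tested, 18.5% rose and 17.1% fell. When a log2FC of 1 or more in either direction was asked for as well, 15 chains rose against 5.62% of all genes, and neither of the chains that fell reached that size. The median log2FC was 0.88 over the tested chains and -0.0040 over all genes. Every hyperoxia library lay above every normoxia library for 17 chains and below for 2, against 17.8% and 17.6% of all genes. Col4a6 was the only tested chain that reached the minimum level through the hyperoxia libraries alone.

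Leaving out hyperoxia 3 gave 23 chains that rose and 2 that fell out of 33 tested, and 17 and 1 with the fold threshold. In that fit 17.6% of all 15920 genes tested rose and 2502 genes fell. No share of all genes was taken there with the fold threshold. With all libraries, 9 of 10 tested basement membrane chains and 5 of 8 fibrillar chains rose. So did 3 of 3 microfibrillar and 5 of 10 other chains, beside 18.5% of all genes tested. The median log2FC values of these classes were 1.29, 0.73, 1.96 and 0.68. In summed CPM, which is not corrected for gene length, the basement membrane chains went from 15002 ± 578 to 21949 ± 679 (SD, n = 4), the fibrillar chains from 585 ± 58.5 to 833 ± 121, the microfibrillar chains from 73.3 ± 16.1 to 328 ± 49.6 and the other chains from 105 ± 8.74 to 127 ± 10.3.

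**Figure D2:**
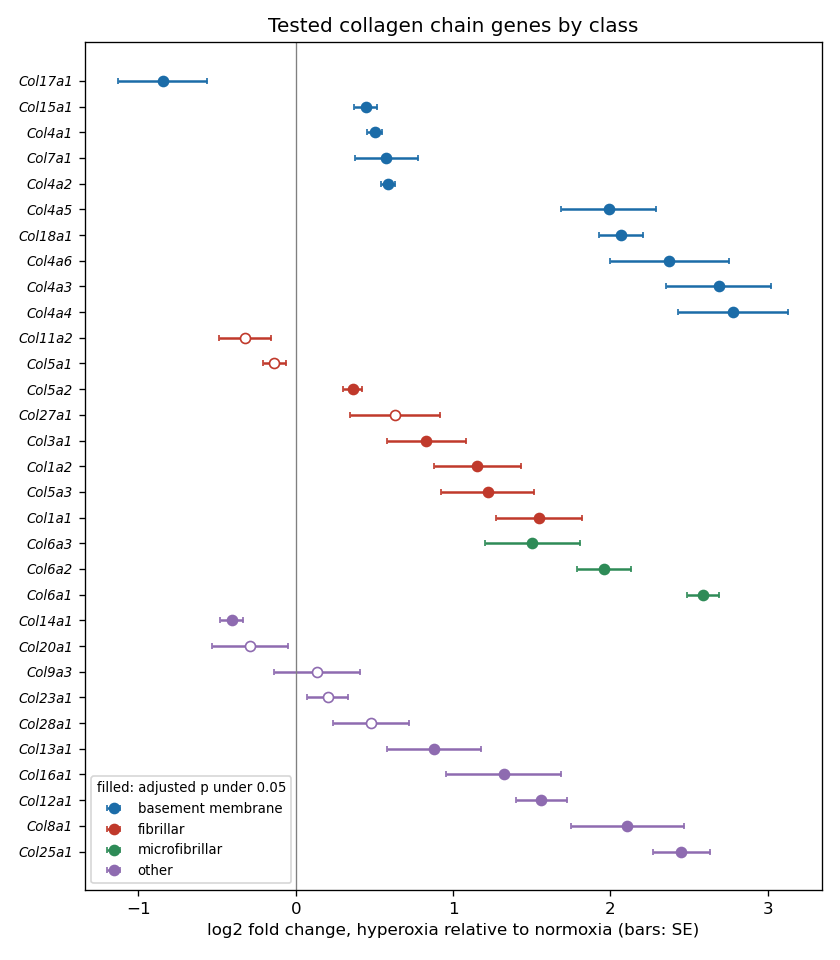
Log2FC of each tested collagen chain in hyperoxia relative to normoxia (horizontal axis) with its standard error as the bar, coloured by class and filled where the adjusted p was under 0.05. Type IV minor chains, Col18a1, Col6a1 and Col25a1 lie near or above 2, Col4a1 and Col4a2 near 0.5, and 5 chains lie below 0.

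The major type IV chains, Col4a1 and Col4a2, dominated the collagen transcripts. They held between 92.0 and 93.6% of the collagen counts in normoxia and between 91.0 and 92.7% in hyperoxia. Col4a1 had more counts than any other gene in all 8 libraries. Per gene length, as FPKM (counts scaled for both gene length and sequencing depth), it stood at rank 7 or 8 of the protein-coding genes in normoxia and at rank 4 in each hyperoxia library, and Col4a2 at rank 12 or 13 and at rank 7 to 9. The next chains by FPKM in normoxia were Col15a1 with 39.0 ± 3.07 and Col5a2 with 34.5 ± 0.969, below Col4a1 with 1194 ± 50.2 and Col4a2 with 853 ± 28.9 (SD, n = 4).

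Col4a1 (ENSMUSG00000031502, chr8:11198423-11312826, minus strand, GRCm38) encodes the α1 chain of the common basement membrane network. It was at 8455, 8952, 9280.1 and 9239.9 CPM in normoxia 1 to 4 and at 12415, 13164, 12904 and 12415 CPM in hyperoxia 1 to 4. All hyperoxia libraries were above all normoxia libraries, and the log2FC was 0.50 (SE 0.0474, adjusted p = 2.07e-05). Col4a2 (ENSMUSG00000031503, chr8:11312805-11449287, plus strand), which encodes the α2 chain, was at 5418, 5698, 5801 and 5859 CPM in normoxia and at 8273, 8924, 8644 and 8361 CPM in hyperoxia. Its groups did not overlap either, and the log2FC was 0.59 (SE 0.0463, adjusted p = 6.19e-06). Both genes start head to head, and their annotated exons share 22 bases on opposite strands, 0.295% of the exon bases of Col4a1 and 0.332% of those of Col4a2. How reads were assigned by strand is not given in the sources used here.

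The minor type IV chains rose by much more, from low levels. Col4a3 (chr1:82586921-82722059, plus strand) encodes the α3 chain. It was at 8.63, 8.82, 6.38 and 6.46 CPM in normoxia and at 62.9, 60.3, 18.6 and 53.1 CPM in hyperoxia 1 to 4. Hyperoxia 3 was well below the other hyperoxia libraries yet above every normoxia library, and the log2FC was 2.69 (SE 0.334, adjusted p = 0.000142). Its exons overlap the transcript C430014B12Rik on the opposite strand over 563 bases, 5.65% of the exon bases, and that transcript had a mean count of 4.75 per library against 497 for Col4a3.

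Col4a4 (chr1:82448423-82586849, minus strand), the gene of the α4 chain, was at 8.94, 8.36, 6.60 and 6.30 CPM in normoxia and at 66.7, 63.1, 18.5 and 59.0 CPM in hyperoxia. The same library was low, the groups did not overlap, and the log2FC was 2.78 (SE 0.350, adjusted p = 0.000152). Only 71 bases lie between the annotated starts of Col4a4 and Col4a3. This interval, chr1:82586850-82586920, is shown because it lies upstream of both genes, which moved together. It is written on the minus strand, 5′ to 3′ toward Col4a4, from the RefSeq promoter table of GRCm38.p6, without annotated exon bases. A search on both strands looked for TATAAA (the core of a TATA box), for CCAAT (read by the factor NF-Y) and for GGGCGG (read by Sp1), which are set in capitals in the sequences shown here. This interval holds none of the 3.

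Col4a4 and Col4a3 interval: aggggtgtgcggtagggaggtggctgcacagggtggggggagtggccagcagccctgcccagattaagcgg

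Col4a5 and Col4a6, the genes of the α5 and α6 chains, form another head-to-head pair on the X chromosome, with 1308 bases between their annotated starts. Col4a5 (chrX:141475385-141689234, plus strand) was at 12.2, 6.71, 9.29 and 6.63 CPM in normoxia and at 41.5, 40.7, 15.7 and 40.2 CPM in hyperoxia. Hyperoxia 3 was again the lowest of its group, above every normoxia library, and the log2FC was 1.99 (SE 0.303, adjusted p = 0.000524). Col4a6 (chrX:141165403-141474076, minus strand) was at 0.735, 1.08, 0.392 and 0.387 CPM in normoxia and at 4.40, 4.02, 1.83 and 3.27 CPM in hyperoxia, a log2FC of 2.38 (SE 0.377, adjusted p = 0.000688). For all 4 minor chains the value of hyperoxia 3 lay between the normoxia libraries and the other hyperoxia libraries. The AT1, AT2 and pan-epithelial marker sums had the same order, as given above, and their part in these rises was not tested. Without hyperoxia 3 the log2FC values of Col4a3, Col4a4, Col4a5 and Col4a6 were 2.96, 3.06, 2.23 and 2.58, and those of Col4a1 and Col4a2 were 0.50 and 0.58.

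**Figure D3:**
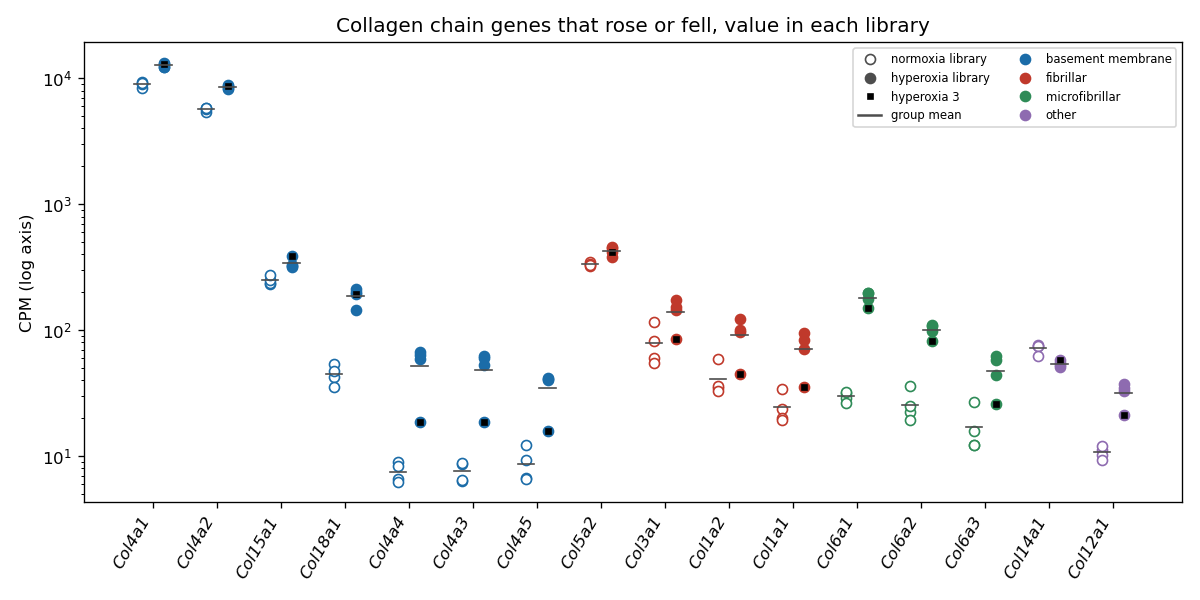
CPM (log scale) of the collagen chains that rose or fell with a group mean of at least 10 CPM, 1 point per library (open in normoxia, filled in hyperoxia, a black square on hyperoxia 3) and a line at each group mean. In Col4a3, Col4a4 and Col4a5 the hyperoxia 3 point, between 15.7 and 18.6 CPM, sits apart from the other 3 hyperoxia points, whereas in Col4a1, Col4a2 and Col18a1 it lies among them.

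The multiplexins Col15a1 and Col18a1, basement membrane collagens that also carry sugar chains, both rose. Col18a1 (chr10:77052178-77166548), whose C-terminal fragment is endostatin, was at 53.6, 42.7, 47.7 and 35.6 CPM in normoxia and at 146, 203, 193 and 211 CPM in hyperoxia. The groups were far apart, hyperoxia 3 was not the lowest, and the log2FC was 2.07 (SE 0.138, adjusted p = 2.04e-06). Col15a1, on chromosome 4, was at 235, 236, 253 and 276 CPM in normoxia and at 318, 333, 386 and 324 CPM in hyperoxia, with hyperoxia 3 the highest. The log2FC was 0.44 (SE 0.0735, adjusted p = 0.000899).

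Col7a1, the chain of the anchoring fibrils under squamous epithelium, and Col17a1, a hemidesmosome collagen that spans the membrane of basal epithelial cells, moved in opposite directions at low levels. Col7a1 went from 3.87 ± 1.12 to 5.77 ± 0.536 CPM (SD, n = 4), a log2FC of 0.58 (adjusted p = 0.0444). Col17a1 went from 2.67 ± 0.618 to 1.48 ± 0.522 CPM, a log2FC of -0.85 (SE 0.284, adjusted p = 0.0391), with no overlap between the groups. Both calls were lost when single libraries were left out. For Col7a1 these were normoxia 3 or 4 and hyperoxia 1, 2 or 4 (adjusted p between 0.0794 and 0.118), and for Col17a1 normoxia 2, 3 or 4 and hyperoxia 1 or 2 (adjusted p between 0.0546 and 0.109).

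The fibrillar chains divided into an abundant type V chain with a small even rise and type I and III chains with larger, uneven rises. Col5a2 encodes the α2 chain of type V, which nucleates fibrils. It was at 346, 334, 326 and 328 CPM in normoxia and at 383, 458, 421 and 451 CPM in hyperoxia. The groups did not overlap and the log2FC was 0.36 (SE 0.0590, adjusted p = 0.00082). Its partner Col5a1 did not pass the test, at 95.3 ± 4.25 and 86.7 ± 9.07 CPM (log2FC -0.14, adjusted p = 0.166), and Col5a3, another type V chain, rose from 2.40 ± 1.21 to 5.59 ± 1.04 CPM (log2FC 1.22, adjusted p = 0.00855).

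Col1a1 (chr11:94936224-94953042), the gene of the α1 chain of type I collagen, was at 34.0, 23.7, 20.3 and 19.6 CPM in normoxia and at 83.1, 94.8, 35.6 and 71.2 CPM in hyperoxia. Normoxia 1 was the highest of its group and hyperoxia 3, the lowest of its own, was just above it. The log2FC was 1.55 (SE 0.273, adjusted p = 0.00134). Col1a2 (chr6:4504814-4541544), for the α2 chain, was at 59.5, 34.9, 36.3 and 33.2 CPM in normoxia and at 101, 122, 44.6 and 96.5 CPM in hyperoxia. Here hyperoxia 3 was below normoxia 1, so the groups overlapped, and the log2FC was 1.16 (SE 0.278, adjusted p = 0.00809).

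Col3a1 (chr1:45311538-45349706), the chain of type III, which makes thin reticular fibrils, was at 116, 60.5, 82.9 and 55.0 CPM in normoxia and at 146, 173, 85.6 and 154 CPM in hyperoxia. The groups overlapped in the same way, and the log2FC was 0.83 (SE 0.251, adjusted p = 0.0247). That call was lost without normoxia 2, normoxia 4, hyperoxia 2 or hyperoxia 4 (adjusted p = 0.0722, 0.0694, 0.0739 and 0.0556). Without hyperoxia 3 the log2FC values of Col1a1, Col1a2 and Col3a1 were 1.77, 1.38 and 1.003. Normoxia 1 had the highest value of these chains in its group, and hyperoxia 3 the lowest in its own. The summed fibroblast and mural markers had the same extreme libraries, and so did the AT1, AT2 and pan-epithelial sums. These libraries thus do not separate stromal from epithelial markers, and the part of either was not tested. The fibroblast markers Lum and Scara5 and the mural markers Cnn1 and Lgr6 had a count of 0 in at least 1 library.

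Sequences upstream of Col1a2 and Col3a1 are shown because these chains moved unevenly between libraries in the same way. The Col1a2 stretch, chr6:4505370-4505492 on the plus strand, ends 125 bases before the RefSeq start and lies between exons inside the GENCODE span of Col1a2. The Col3a1 stretch, chr1:45311288-45311537 on the plus strand, ends at the start of the gene. Both are from RefSeq, GRCm38.p6. The capitals mark 2 GGGCGG matches for Col1a2 and 1 TATAAA match for Col3a1. The 125 bases left out before the Col1a2 start hold a CCAAT match.

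Col1a2: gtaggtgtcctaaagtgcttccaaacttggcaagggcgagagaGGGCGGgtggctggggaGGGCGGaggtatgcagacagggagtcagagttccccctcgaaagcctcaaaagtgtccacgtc
Col3a1: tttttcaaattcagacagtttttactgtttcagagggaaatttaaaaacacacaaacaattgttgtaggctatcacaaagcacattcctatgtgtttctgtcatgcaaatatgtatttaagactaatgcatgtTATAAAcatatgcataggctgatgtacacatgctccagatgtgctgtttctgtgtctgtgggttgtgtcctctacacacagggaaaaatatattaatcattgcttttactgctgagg

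Among the remaining tested fibrillar chains, Col27a1 was at 3.42 ± 0.790 and 5.29 ± 1.89 CPM (log2FC 0.63, adjusted p = 0.111) and Col11a2 at 5.51 ± 0.573 and 4.40 ± 0.887 CPM (log2FC -0.32, adjusted p = 0.158). Neither passed the test. Without hyperoxia 3, which at 2.52 CPM was below every normoxia library, Col27a1 passed with a log2FC of 0.86 (adjusted p = 0.00637). Col5a1 passed with -0.20 (adjusted p = 0.0375) without hyperoxia 2.

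All tested chains of type VI, the microfibrillar collagen, rose, and Col6a1 had the smallest adjusted p of the 31. Col6a1 (chr10:76708792-76726168), the α1 chain, was at 32.0, 28.9, 32.3 and 26.3 CPM in normoxia and at 176, 196, 149 and 198 CPM in hyperoxia. Hyperoxia 3 was again the lowest of its group but far above all normoxia libraries, and the log2FC was 2.59 (SE 0.101, adjusted p = 6.98e-08). Col6a2 (chr10:76595762-76623630), the α2 chain, was at 36.2, 22.3, 24.9 and 19.5 CPM in normoxia and at 99.3, 109.6, 81.6 and 108.8 CPM in hyperoxia. These groups did not overlap either, and the log2FC was 1.96 (SE 0.169, adjusted p = 1.11e-05).

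Col6a3 (chr1:90765923-90843971), the large α3 chain, was at 27.2, 15.9, 12.2 and 12.4 CPM in normoxia and at 58.6, 62.9, 25.9 and 43.9 CPM in hyperoxia. Hyperoxia 3 was below normoxia 1, as for Col1a2, and the log2FC was 1.504 (SE 0.303, adjusted p = 0.00296). Without hyperoxia 3 the log2FC values of Col6a1, Col6a2 and Col6a3 were 2.67, 2.04 and 1.71. In that library alone, the log2 ratio to the normoxia mean was 2.32, 1.67 and 0.62.

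The upstream sequences of the 3 chains are shown because they rose together. Col6a1 and Col6a2 are near each other on chr10, on the same strand, and Col6a3 is on chr1. They are from RefSeq, GRCm38.p6, on the minus strand 5′ to 3′, without annotated exon bases, with motif matches in capitals. The Col6a1 stretch is chr10:76726169-76726294, the Col6a2 stretch chr10:76623631-76623880 and the Col6a3 stretch chr1:90843972-90844221. Only Col6a2 holds a match, of GGGCGG on the opposite strand, written CCGCCC.

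Col6a1: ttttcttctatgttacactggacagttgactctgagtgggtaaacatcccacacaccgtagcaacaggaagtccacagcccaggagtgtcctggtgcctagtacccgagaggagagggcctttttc
Col6a2: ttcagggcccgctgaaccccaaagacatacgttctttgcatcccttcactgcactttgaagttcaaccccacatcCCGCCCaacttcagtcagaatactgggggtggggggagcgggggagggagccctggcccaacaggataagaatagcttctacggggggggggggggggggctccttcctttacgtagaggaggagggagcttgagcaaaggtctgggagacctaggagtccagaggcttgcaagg
Col6a3: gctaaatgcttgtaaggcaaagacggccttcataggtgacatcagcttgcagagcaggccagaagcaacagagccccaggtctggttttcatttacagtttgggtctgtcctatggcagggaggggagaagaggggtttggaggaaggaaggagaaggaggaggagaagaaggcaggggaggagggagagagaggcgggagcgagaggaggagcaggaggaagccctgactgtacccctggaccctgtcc

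Among the fibril-associated collagens (FACIT), which sit on the surface of fibrils, Col12a1 and Col14a1 moved in opposite directions. Col12a1 was at 11.3, 10.2, 12.0 and 9.39 CPM in normoxia and at 37.4, 33.2, 21.1 and 34.8 CPM in hyperoxia, with hyperoxia 3 the lowest of its group. The groups did not overlap, and the log2FC was 1.56 (SE 0.164, adjusted p = 4.57e-05). Col14a1 was at 74.9, 75.7, 75.2 and 62.0 CPM in normoxia and at 51.0, 55.0, 57.8 and 53.1 CPM in hyperoxia. All hyperoxia libraries were below all normoxia libraries, and the log2FC was -0.41 (SE 0.0713, adjusted p = 0.00128).

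The other chains were all below a mean of 10 CPM in both groups. Col25a1, a transmembrane collagen, rose from 1.65 ± 0.450 to 9.07 ± 0.841 CPM (log2FC 2.45, SE 0.181, adjusted p = 3.86e-06), with every hyperoxia library at 8.13 CPM or more. Col8a1, a network-forming chain of vessel walls, rose from 0.938 ± 0.401 to 4.08 ± 1.59 CPM (log2FC 2.11, adjusted p = 0.00109). Rises were smaller for the FACIT Col16a1 (2.95 ± 1.66 to 7.33 ± 2.38 CPM, adjusted p = 0.0163) and the transmembrane Col13a1 (3.31 ± 1.03 to 6.07 ± 2.24 CPM, adjusted p = 0.0406), whose groups overlapped. The Col13a1 call was lost without normoxia 2, 3 or 4 and without hyperoxia 1, 2 or 4, with adjusted p between 0.0570 and 0.122, and that of Col16a1 without normoxia 4, where the adjusted p lay just past the threshold. The 4 that did not pass were Col23a1, Col20a1, Col9a3 and Col28a1, with mean CPM between 1.26 and 7.69 and log2FC values between -0.29 and 0.48. Col20a1 shares 79 exon bases on its own strand with another annotated transcript, so its count of 49.25 per library is uncertain.

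The other 13 chains had too few counts to test. They were Col2a1, Col6a4, Col6a5, Col6a6, Col8a2, Col9a1, Col9a2, Col10a1, Col11a1, Col19a1, Col22a1, Col24a1 and Col26a1, and none had more than 19 counts in any library. Col19a1 had 1 count in all 8 libraries together, and Col24a1, the highest, had 78. Col2a1 and Col10a1, both typical of cartilage, are in this group, whereas Col11a2 and Col9a3 had enough counts to be tested.

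Hyperoxia 3 was the lowest hyperoxia library for 16 of the 22 chains that rose, and it was the lowest for 45.8% of all genes that rose. The chains differed in how far this library departed from the other 3. Relative to the normoxia mean, its log2 ratio and that of the other 3 were 0.52 and 0.50 for Col4a1, 2.10 and 2.06 for Col18a1 and 2.18 and 2.10 for Col8a1. They were 1.30 and 2.96 for Col4a3, 0.85 and 2.22 for Col4a5, 0.12 and 1.38 for Col1a2 and 0.12 and 1.002 for Col3a1. Thus Col4a1, Col18a1 and Col8a1 were as high in hyperoxia 3 as in the rest. Col4a3, Col4a5, Col1a2 and Col3a1 fell short there by over 0.8 log2 units. Other chains lay between, such as Col6a1 (2.32 and 2.67) and Col12a1 (0.98 and 1.71), so these are ends of a range.

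**Figure D4:**
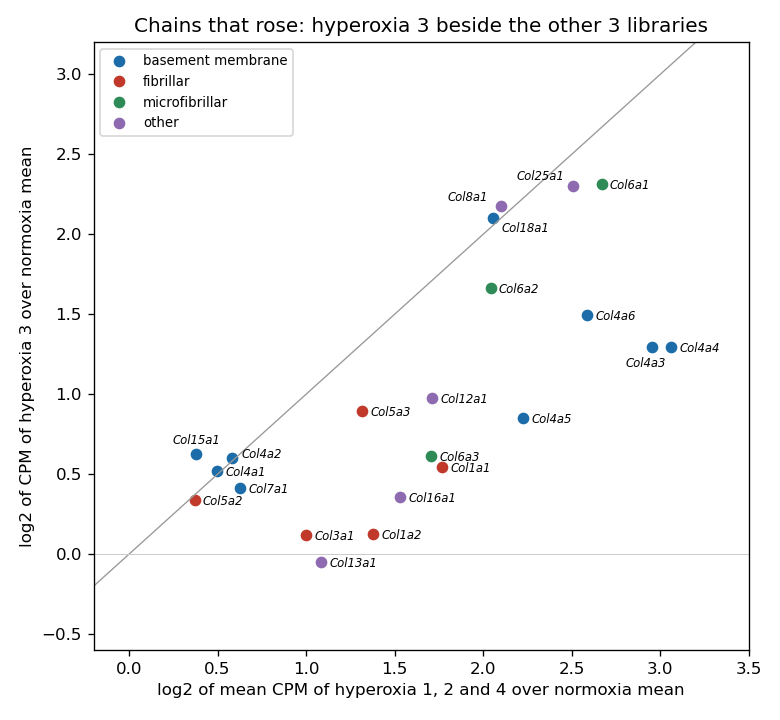
Log2 ratio of hyperoxia 3 to the normoxia mean (vertical axis) against that of the other 3 hyperoxia libraries (horizontal axis), 1 point per collagen chain that rose, with the line of equal values. Col4a1, Col4a2, Col18a1 and Col8a1 lie near the line, and Col4a3, Col4a4, Col1a1, Col1a2 and Col3a1 lie below it.

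Chains of the same collagen type, and type III with type I, were compared within each library. Ratios of counts per gene length were used, which do not depend on the library size. The length was 4380 bases for Col6a1 and 8326 for Col6a2. For 42 of the 44 chains it equals all annotated exon bases of the gene, merged. The level of a ratio therefore depends on the annotation and does not measure how many chains of each kind a molecule holds. Its change between the groups does not depend on the length. Of 6 ratios, 4 differed between the groups when the library labels were permuted exactly, two-sided (exact p = 0.0286 each, the smallest that 4 against 4 allow, adjusted p = 0.0429 over the 6). All 4 lost the adjusted call without hyperoxia 1, 2 or 4 or normoxia 3 (adjusted p between 0.0571 and 0.0857). The groups did not overlap with all libraries, so leaving a library out could not make them overlap. With 3 against 4 libraries, no exact p under 0.0286 is possible before adjustment. The Col4a1 to Col4a2 ratio, 1.40 ± 0.0147 in normoxia, was 1.32 ± 0.00966 in hyperoxia (SD, n = 4). It lay between 1.38 and 1.42 in normoxia and between 1.31 and 1.33 in hyperoxia, so a small shift was larger than a very small spread.

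Col1a1 to Col1a2, whose chains form type I trimers, went from 1.14 ± 0.102 to 1.48 ± 0.0665, and it was 1.08, 1.28, 1.06 and 1.12 in normoxia and 1.55, 1.47, 1.51 and 1.40 in hyperoxia. Col6a1 to Col6a2 went from 2.30 ± 0.411 to 3.43 ± 0.0467, with 1.68, 2.46, 2.47 and 2.57 in normoxia and 3.37, 3.40, 3.47 and 3.46 in hyperoxia. Hyperoxia 3 was within the range of its group for Col1a1 to Col1a2 and the highest for Col6a1 to Col6a2, unlike its CPM for these chains. The Col3a1 to Col1a1 ratio, type III over type I, fell by 0.65 on the log2 scale, from 2.15 ± 0.458 to 1.36 ± 0.201.

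The Col4a3 to Col4a4 ratio was 1.07 ± 0.0472 in normoxia and 1.01 ± 0.0450 in hyperoxia, a difference that did not pass the test (exact p = 0.143, adjusted p = 0.143). The Col4a5 to Col4a1 ratio was 0.00109 ± 0.000375 and 0.00303 ± 0.00112, with hyperoxia 3 at 0.00136 inside the normoxia range (exact p = 0.0571, adjusted p = 0.0686). Without hyperoxia 3 it passed (adjusted p = 0.0429), and the Col1a1 to Col1a2 ratio then did not (adjusted p = 0.0686).

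**Figure D5:**
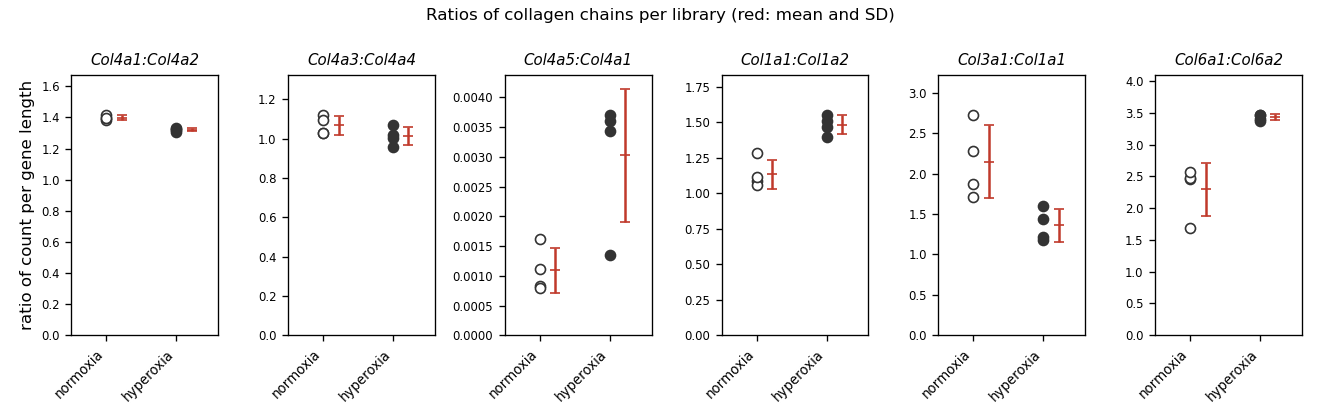
Ratio of counts per gene length (vertical axis) for 6 pairs of collagen chains, 1 point per library, with the group mean and its SD in red. The groups are separate for Col4a1:Col4a2, Col1a1:Col1a2, Col3a1:Col1a1 and Col6a1:Col6a2, and overlap for Col4a3:Col4a4 and Col4a5:Col4a1.

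The RefSeq promoter table held 38 entries for 35 of the 44 chains, and 3 motifs were searched on both strands in the 250 bases before the start. TATAAA occurred in 5 of 38 collagen entries (13.2%) and in 12.4% of all 32851 entries. CCAAT occurred in 13 (34.2%) against 33.8% of all. GGGCGG occurred in 22 (57.9%) against 32.7% of all. Of the 20 entries of chains that rose, 2, 9 and 12 held these motifs. None of the motifs contains another, and a match is a description of the sequence.

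Genes that modify, export, cross-link and bind collagen were counted by list, to be read beside the 18.5% of all genes tested that rose and 17.1% that fell. P4ha3, Adamts14 and Dcn, counted among those that rose, reached the minimum level for testing only through hyperoxia. Of 18 genes for chain modification and folding, 8 rose and 1 fell (median log2FC 0.27). Serpinh1, the collagen chaperone HSP47, rose from 789 ± 24.4 to 967 ± 12.8 CPM (SD, n = 4, log2FC 0.29, adjusted p = 0.000314). Fkbp14, a prolyl isomerase of the endoplasmic reticulum, rose from 20.6 ± 2.40 to 36.0 ± 2.31 CPM. P4ha2, a catalytic subunit of prolyl 4-hydroxylase, rose from 11.2 ± 1.67 to 17.2 ± 1.51 CPM. Colgalt2, which adds galactose to hydroxylysine, fell from 58.5 ± 4.80 to 50.2 ± 2.64 CPM (log2FC -0.22, adjusted p = 0.0243).

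Of 10 tested genes for secretion and propeptide removal, 5 rose and 5 did not pass the test (median log2FC 0.29). Adamts2, which cuts the N-terminal propeptide of fibrillar chains, rose from 3.96 ± 1.67 to 13.2 ± 5.05 CPM (log2FC 1.75, adjusted p = 0.00203), and Pcolce, an enhancer of C-terminal propeptide removal, from 6.53 ± 1.31 to 13.8 ± 3.72 CPM (1.08, adjusted p = 0.00261). Of 6 cross-linking enzymes 4 rose (median 0.66). Loxl3 rose from 5.54 ± 1.04 to 29.1 ± 3.74 CPM (log2FC 2.39) and Loxl1 from 5.35 ± 2.08 to 12.0 ± 4.02 CPM (1.17, adjusted p = 0.0125). Lox itself, the founding lysyl oxidase, was at 41.5 ± 7.89 and 40.4 ± 10.6 CPM (log2FC -0.03, adjusted p = 0.898).

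Of 8 tested collagen receptors, 3 rose and 1 fell (median 0.02), against 18.5% and 17.1% of all genes. Itga1, the α1 integrin subunit that binds type IV collagen, fell from 657 ± 47.8 to 395 ± 33.7 CPM (log2FC -0.73). Ddr1, a collagen-binding receptor kinase typical of epithelium, rose from 4.25 ± 1.31 to 11.9 ± 3.85 CPM (log2FC 1.49, adjusted p = 0.00197), while Ddr2, its mesenchymal relative, was at 16.4 ± 2.29 and 15.9 ± 2.54 CPM (-0.05, adjusted p = 0.799). Mrc2, an endocytic collagen receptor, rose from 10.4 ± 4.88 to 34.5 ± 14.1 CPM (1.73, adjusted p = 0.00403) with overlapping groups. Of 8 tested collagen binding partners 7 rose (median 0.77), and Fn1, fibronectin, went from 274 ± 17.2 to 574 ± 106 CPM (log2FC 1.06) and Bgn, the proteoglycan biglycan, from 222 ± 43.9 to 412 ± 43.5 CPM (0.89). Hyperoxia 3 was closer to the normoxia mean than the other 3 hyperoxia libraries for Adamts2 (0.76 against 1.96 log2 units), Mrc2 (0.44 against 1.98) and Loxl1 (0.24 against 1.37), and it was similar for Serpinh1 (0.30 against 0.29).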

How the data were processed

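RNA of 8 libraries of mouse lung ECs, 4 in normoxia and 4 in hyperoxia, grouped by the sample titles, was analysed. The authors deposited whole-number read counts per gene and FPKM values, which scale the same counts by gene length and library total. The submitters' processing notes name HISAT2 2.0.5, featureCounts 1.5.0-p3 and the build mm10. Strand use and the handling of multimapping reads are not given in the sources used here. The labels name a column kit and the study's methods name TRIzol for RNA extraction, and which was used is not settled here.

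edgeR 4.0.16 (R 4.3.3) tested the counts by quasi-likelihood after TMM scaling, with the default filter of filterByExpr (at least 0.566 CPM in 4 libraries), group as the only term, and Benjamini-Hochberg adjustment over 15564 genes. These held at least 99.8% of the counts of each library. Depth of 16098086 to 18300730 counts limits the 13 untested chains. Alternatives were DESeq2 1.42.0, limma 3.58.1 (voom, and log2 FPKM with a pseudocount), other size factors and filters, a replicate block and each library left out. Ratios were tested by exact permutation over 70 assignments, on counts plus 0.5 per gene length. Scripts were tested on simulated data. Coordinates are those of the deposited table, equal to GENCODE M21 (GRCm38) for all 44 chains. Promoters came from RefSeq, GRCm38.p6.

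The chains, lists, named-gene rule and motifs were chosen with earlier results of these data known. Values in every library are given for chains that rose or fell with a mean of at least 10 CPM in either group and for type IV. From each list were named up to 2 genes with the largest rise and 2 with the largest fall among those called at such a mean, plus Serpinh1, Lox, Ddr1, Ddr2 and Itga1. Markers of lymphatic ECs summed to between 1250 and 1339 CPM in normoxia and between 1873 and 2143 CPM in hyperoxia, those of leukocytes to between 162 and 336 and between 204 and 508 CPM, and those of mesothelial cells to at most 4.85 CPM.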

Additional observations from a re-analysis of the deposited data

Results flagged for a closer look

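In 6 of the 62 groups of 4 libraries tested over the 31 chains, 1 library stood apart from its group by Dixon's criterion, where chance gives about 3.1. Hyperoxia 3 accounted for 3 of them. It was at 18.5 CPM for Col4a4 (the others at 59.0 to 66.7 CPM), at 15.7 CPM for Col4a5 (40.2 to 41.5 CPM) and at 3.78 CPM for Col16a1 (8.34 to 8.78 CPM). Normoxia 1 was at 59.5 CPM for Col1a2, above the others at 33.2 to 36.3 CPM. Normoxia 4 was at 62.0 CPM for Col14a1, below the others at 74.9 to 75.7 CPM, and at 2.32 CPM for Col25a1, above the others at 1.35 to 1.48 CPM.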

How the results depend on the processing

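Over 18 alternatives for each of the 31 tested chains, 522 of 558 values kept their direction and side of the threshold, 33 no longer passed, 2 newly passed and 1 changed sign. That was Col9a3, not called, at -0.0426 without normoxia 3, with values up to 0.281 when other libraries were left out. With DESeq2, the size factors of DESeq2 in edgeR, another or no filter on counts, and the replicate block, all 31 chains kept their call. With library totals alone, Col7a1 lost its call (adjusted p = 0.0526), leaving 21 chains higher. The replicate block gave 22 chains higher and 2 lower. Same-numbered libraries did not vary alike around their group means (correlations between -0.14 and 0.119, and only number 1 matched best with its own). This cannot settle whether the numbers pair the samples. Across all genes, the block gave 2582 higher and 2210 lower. With limma on log2(FPKM + 1), 8 chains were higher past the fold threshold. With log2(FPKM + 0.1) and no filter, 1 was lower, and 3 fibrillar and 3 other chains were higher. Removing the filter left the log2 fold changes on that scale as they were for Col16a1, Col1a2 and Col3a1 (1.19, 1.08 and 0.84), whose adjusted p went from 0.0254, 0.0223 and 0.0398 to 0.0700, 0.0529 and 0.0876.

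With each library left out, the number higher lay between 18 and 23, or between 14 and 17 with the fold threshold, and the number lower between 1 and 2, or between 0 and 1. The 1 was Col17a1 without hyperoxia 3. In these fits between 15.1% and 17.8% of all genes tested rose, and between 2133 and 2613 genes fell. Basement membrane chains higher were 8 to 9, fibrillar 4 to 6, microfibrillar 3 and other 3 to 5, with 3 without normoxia 4. The log2 differences of the ratios ranged from -0.0885 to -0.0766 for Col4a1:Col4a2, from -0.104 to -0.0524 for Col4a3:Col4a4, from 1.29 to 1.77 for Col4a5:Col4a1, from 0.356 to 0.449 for Col1a1:Col1a2, from -0.751 to -0.525 for Col3a1:Col1a1 and from 0.455 to 0.659 for Col6a1:Col6a2. The 4 ratios that passed no longer did without hyperoxia 1, 2 or 4 or normoxia 3 (adjusted p between 0.0571 and 0.0857). For these 4 ratios the groups did not overlap with all libraries, so leaving a library out could not make them overlap. With 3 against 4 libraries, no exact p under 0.0286 is possible before adjustment over the 6. Why calls changed was not tested further.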
